A study of Homo sapiens with 6 samples.

Results

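The 8 genes described here are the immune checkpoint ligands CD274 (PD-L1), PDCD1LG2 (PD-L2), CD276 (B7-H3), VTCN1 (B7-H4), LGALS9 (galectin-9), PVR (CD155) and CD47, together with IDO1, an enzyme that breaks down tryptophan. They were taken by name out of 58174 genes in the deposited values. The samples were SiHa cells, an established human line from a cervical squamous cell carcinoma, 48 h after plasmids were brought in with a Lipofectamine reagent. The plasmid was GV230-BRCA1 in the 3 samples of the OV-BRCA1 group and empty GV230 in the 3 samples of the NC group. Both groups therefore received plasmid DNA and the transfection reagent, the samples are replicates of one cell line, and no cells without plasmid were analysed here. The unit is FPKM, sequenced fragments scaled to transcript length and to all mapped fragments of a sample, which was summed over the annotated transcripts of each gene. Since each sample is a whole culture, a higher level in every cell and a larger share of expressing cells cannot be told apart.

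Checkpoint ligands are surface or secreted proteins with which a cell dampens the immune cells that touch it. CD274 and PDCD1LG2 bind PD-1 on T cells, CD276 and VTCN1 belong to the same B7 family, PVR binds TIGIT and CD226, LGALS9 binds TIM-3, and CD47 binds SIRPA on macrophages and blocks engulfment. IDO1 starts the kynurenine pathway, which removes tryptophan from the surroundings of T cells. Interferon signalling is known to induce CD274, PDCD1LG2 and IDO1 in epithelial tumour cells, with interferon regulatory factors (IRFs) and STAT proteins acting at their promoters.

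RefSeq promoter windows (GRCh38.p14, 250 bases before to 50 bases after the annotated start) were held for 6 of the 8 genes, and not for PDCD1LG2 and IDO1. They were searched on both strands for the IRF motif GAAANNGAAA, for the STAT motif TTCNNNGAA and for the kappaB motif. The IRF motif lay in the windows of CD274 and LGALS9 and in none of the windows of CD276, VTCN1, PVR and CD47, while 3.57% of all 35116 windows held it. The windows of CD274 (chr9:5450292-5450591, plus strand) and LGALS9 (chr17:27630938-27631237, plus strand) are shown from 5′ to 3′ for these matches, with the matches, which read as the reverse complement of the motif, in capitals.
CD274: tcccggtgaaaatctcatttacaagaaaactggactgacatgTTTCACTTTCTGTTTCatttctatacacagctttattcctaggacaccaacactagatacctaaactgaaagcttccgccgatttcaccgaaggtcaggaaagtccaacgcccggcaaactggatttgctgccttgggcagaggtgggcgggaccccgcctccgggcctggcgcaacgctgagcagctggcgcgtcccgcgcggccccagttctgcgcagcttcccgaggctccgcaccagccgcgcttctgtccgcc
LGALS9: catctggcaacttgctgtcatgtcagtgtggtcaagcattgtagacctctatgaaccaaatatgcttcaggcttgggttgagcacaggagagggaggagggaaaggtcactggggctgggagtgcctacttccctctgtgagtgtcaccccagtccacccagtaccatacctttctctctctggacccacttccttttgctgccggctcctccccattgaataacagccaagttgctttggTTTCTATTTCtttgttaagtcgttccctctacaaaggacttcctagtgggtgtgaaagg

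In CD274 the capitals hold 2 overlapping matches, TTTCACTTTC and TTTCTGTTTC, whose first bases lie at positions -208 and -202 from the start. The CD274 window also held 1 match to the STAT motif, TTCACCGAA, which begins at position -125. The STAT motif was found in no other member window and in 7.66% of all windows. The single LGALS9 match, TTTCTATTTC, begins at position -9. The kappaB motif was found in 1 of the 2 CD276 windows and in 11.3% of all windows. A match describes these letters only, and binding of a factor was not measured.

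The deposited files give no depth. The read totals that the study lists in its supplement were not used here, and the depth was estimated from the FPKM value of a single fragment in genes with 1 transcript. The NC samples came to 16280000 to 20390000 fragments and the OV-BRCA1 samples to 14350000 to 16590000. Pearson's r of log2(FPKM + 1) across genes was 0.985 to 0.986 within groups and 0.951 to 0.955 between groups. BRCA1, the gene on the plasmid, measured 20.1, 14.9 and 21.7 FPKM in NC samples 1, 2 and 3 and reached 35.7, 40.8 and 34.9 FPKM after GV230-BRCA1. Of 10 epithelial markers, 5 had a mean FPKM of at least 1, led by KRT7 (mean 1659 FPKM), and of the keratins of squamous and basal cells KRT17 had group means of 1033 and 1434 FPKM (OV-BRCA1 and NC), KRT6A of 1.09 and 0.173 FPKM, and KRT5 and KRT14 of at most 0.614 FPKM. The leukocyte markers PTPRC, CD3D and MS4A1 were listed at 0 in all samples. The 11 leukocyte markers summed to 7.23 to 9.54 FPKM in the OV-BRCA1 group and to 18.95 to 21.5 FPKM in the NC group, nearly all of it CD14 (group means 7.79 and 19.4 FPKM). The 5 fibroblast markers summed to 3.18 to 3.71 FPKM against 6.06 to 6.74 FPKM, mostly COL1A1, with LUM at 0, and the 3 endothelial markers to 0.761 to 1.45 FPKM against 0.629 to 0.788 FPKM, with VWF at 0.

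In the OV-BRCA1 group CD274, PDCD1LG2, IDO1, LGALS9 and CD47 were higher than in the NC group, PVR and CD276 did not pass the test, and VTCN1 was listed at 0 throughout. The groups were compared with limma on log2(FPKM + 1), and a gene was called when its Benjamini-Hochberg adjusted p-value over all genes tested was below 0.05. Of the 8 genes, 7 passed the filter (3 or more samples with 0.5 FPKM or more), 2 of them (CD274 and PDCD1LG2) only through the OV-BRCA1 samples. CD274 and PDCD1LG2 thus had to differ, and of the other 5 tested genes 3 were called. The counts stand beside 35.3% of 16321 tested genes called in either direction and 16.4% called higher. All of the called genes but CD47 also had a log2 fold change above 1, as did 2.89% of the tested genes. The groups did not overlap for 6 of the 8 genes, CD276 and VTCN1 being the exceptions, and for 50.8% of all genes tested. This log2 scale understates the changes of weakly expressed genes, so the ratio of the mean FPKM is given as well.

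**Figure D1:**
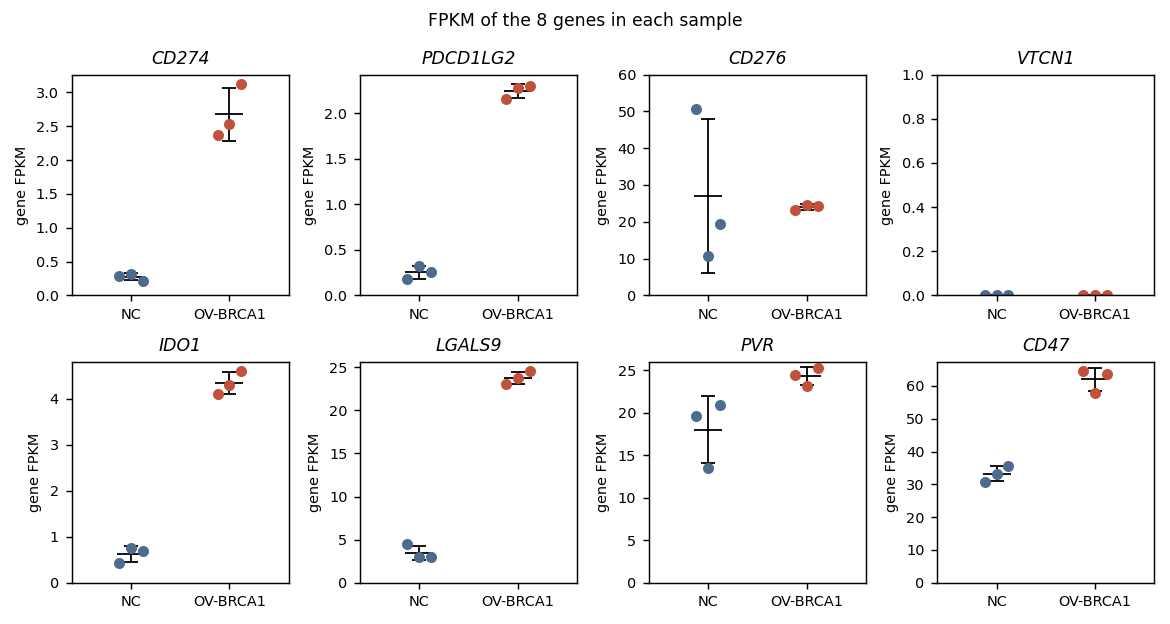
FPKM of each gene (vertical axes, linear, each with its own range) in the 3 NC samples (blue) and the 3 OV-BRCA1 samples (red), with the group mean and SD in black. All OV-BRCA1 points lie above all NC points for CD274, PDCD1LG2, IDO1, LGALS9, PVR and CD47, the NC points of CD276 range from 10.8 to 50.5 FPKM, and VTCN1 is at 0.

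CD274 (ENSG00000120217, chromosome 9, 5450503 to 5470566, GRCh38) encodes PD-L1, the main ligand of PD-1. NC samples 1, 2 and 3 held 0.290, 0.323 and 0.218 FPKM of CD274, and OV-BRCA1 samples 1, 2 and 3 held 2.37, 2.54 and 3.12 FPKM. All OV-BRCA1 samples were far above all NC samples, and the mean of 2.68 ± 0.394 against 0.277 ± 0.0537 FPKM (SD, n = 3 each) was 9.66 times as high. In limma this was a log2 fold change of 1.52 ± 0.11 (SE, adjusted p = 1.92e-04). As CD274 passed the filter only where it is high, it had to differ in that fit, and with no filter on any gene the adjusted p from limma was 0.00133. By the estimated depth, 9.82 to 14.8 fragments lie behind each NC value and 91.3 to 104 fragments behind each OV-BRCA1 value.

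PDCD1LG2 (ENSG00000197646, chromosome 9, 5510570 to 5571254) encodes PD-L2, the other ligand of PD-1, and lies 40003 bases downstream of CD274 on the same strand. The NC samples held 0.178, 0.321 and 0.262 FPKM of it, the OV-BRCA1 samples 2.16, 2.28 and 2.30 FPKM. The OV-BRCA1 samples lay close together, and their mean of 2.25 ± 0.0747 FPKM was 8.86 times the NC mean of 0.253 ± 0.0718 FPKM (SD, n = 3 each). The limma log2 fold change was 1.37 ± 0.09 (SE, adjusted p = 1.28e-04), with an estimated 6.84 to 14.4 fragments behind the NC values. The filter bears on PDCD1LG2 as on CD274, and with no filter the adjusted p from limma was 8.95e-04.
Within 500000 bases of the pair lie 13 protein-coding genes, counting CD274 and PDCD1LG2, of which 8 were tested. No neighbour was called. JAK2, the kinase gene upstream of CD274, had 1.82 ± 0.148 against 1.50 ± 0.326 FPKM (SD, n = 3 each, adjusted p = 0.274 from limma), and PLGRKT, which lies between JAK2 and CD274, had a log2 fold change of 0.17. Further downstream RIC1 had a log2 fold change of 0.05 and ERMP1 one of 0.55 (adjusted p = 0.0695 from limma).

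CD276 (ENSG00000103855, chromosome 15, 73683966 to 73714518) encodes B7-H3, a B7 protein found on many carcinomas. The OV-BRCA1 samples stood close together at 23.2, 24.5 and 24.3 FPKM, whereas NC samples 1, 2 and 3 stood at 50.5, 10.8 and 19.4 FPKM. The OV-BRCA1 samples lay within the range of the NC samples, and their mean of 24.0 ± 0.700 FPKM was 0.894 times the NC mean of 26.9 ± 20.9 FPKM (SD, n = 3 each). On the log scale the sign was the opposite, and the log2 fold change of 0.11 had a 95% confidence interval of -1.08 to 1.31 (adjusted p = 0.878 from limma).
VTCN1 (ENSG00000134258, chromosome 1, 117143587 to 117210960), which encodes B7-H4, was listed at 0 for all of its 7 transcripts in all 6 samples.

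LGALS9 (ENSG00000168961, chromosome 17, 27629798 to 27649560) encodes a secreted lectin that binds sugars on TIM-3 and other receptors. LGALS9 measured 4.44, 2.93 and 2.995 FPKM in the NC group and 23.1, 23.7 and 24.5 FPKM in the OV-BRCA1 group. Here too the groups were far apart, with a mean 6.88 times as high and a log2 fold change of 2.49 ± 0.14 (SE, adjusted p = 7.15e-05 from limma). The near-identical genes LGALS9B and LGALS9C can share reads with LGALS9, and both were called higher, with log2 fold changes of 0.66 and 0.90. Their levels were lower than that of LGALS9, at 1.72 ± 0.118 FPKM for LGALS9B and 3.17 ± 0.667 FPKM for LGALS9C in the OV-BRCA1 group (SD, n = 3). AC015688.4, which overlaps LGALS9, was listed at 0 in all samples but NC sample 1.

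CD47 (ENSG00000196776, chromosome 3, 108043094 to 108091862) encodes the signal that holds back macrophages. It had the highest level of the 8 genes in the OV-BRCA1 group, at 64.6, 58.0 and 63.5 FPKM, against 30.9, 33.3 and 35.5 FPKM in the NC samples. The mean rose 1.87 times (log2 fold change 0.88 ± 0.07, SE, adjusted p = 3.59e-04 from limma).
PVR (ENSG00000073008, chromosome 19, 44643798 to 44663583) encodes a nectin-like adhesion protein. Its NC samples measured 19.6, 13.5 and 20.9 FPKM, and its OV-BRCA1 samples 24.5, 23.1 and 25.3 FPKM. The groups did not overlap, but the log2 fold change of 0.43 (95% confidence interval of the single gene 0.06 to 0.81) did not pass the adjusted threshold (adjusted p = 0.0753 from limma). The antisense gene AC243964.2 overlaps PVR on the opposite strand and was called lower (log2 fold change -0.71), and CEACAM19 (-0.08) and MIR4531 (0.64), which also overlap it, were not called. Whether the counting used the strand is not given in the sources used here.

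IDO1 (ENSG00000131203, chromosome 8, 39902275 to 39928444) encodes the first enzyme of the kynurenine pathway. Its level was 0.432, 0.763 and 0.698 FPKM in the NC group, against 4.11, 4.31 and 4.60 FPKM in the OV-BRCA1 group. The mean was 6.88 times as high, the limma log2 fold change was 1.72 ± 0.11 (SE, adjusted p = 1.28e-04), and an estimated 8.79 to 22.3 fragments lay behind the NC values. The antisense genes AC007991.3 and AC007991.4, which overlap IDO1, were listed at 0 in all samples, and the sense intronic gene AC007991.2 reached at most 0.518 FPKM.

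In the NC group the order of the mean levels was CD47, CD276, PVR, LGALS9, IDO1, CD274, PDCD1LG2 and VTCN1. The ranges of CD47 and CD276, of CD276 and PVR, and of CD274 and PDCD1LG2 overlapped there. In the OV-BRCA1 group CD47 came first, and PVR, CD276 and LGALS9 followed at means of 24.3, 24.0 and 23.8 FPKM with overlapping ranges. IDO1, CD274 and PDCD1LG2 came next, each with its lowest sample above the highest sample of the next gene.

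The 8 genes have 68 annotated transcripts, of which 55 were above 0 in at least 1 sample and 30 passed the same filter. When each of 50925 transcripts was tested on its own, 10 of the 30 were called higher and none was called lower, against 2.85% and 2.63% of all transcripts tested. Of the 10 called transcripts 6 were below 0.5 FPKM in every NC sample and passed the filter only through the OV-BRCA1 samples, so they had to differ. With the replicate number as a block only LGALS9-205 of the 10 was called. LGALS9-203, LGALS9-206 and CD47-202 kept their calls whichever sample was left out, whereas PVR-202 lost its call whichever sample was left out. CD274-202, CD274-203 and CD276-202 lost theirs whichever NC sample was left out, and were not tested without an OV-BRCA1 sample. How the fragments of a gene were shared out between its transcripts is an estimate of the authors' software, which is not named in the sources used here. The sum over transcripts is therefore less dependent on that step than the parts.

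The spread of CD276 in the NC group lay in 2 transcripts. CD276-206, which is annotated for nonsense-mediated decay (breakdown of an mRNA with an early stop), stood at 34.5, 0.747 and 7.95 FPKM in NC samples 1, 2 and 3, that is 68.2%, 6.94% and 40.9% of the gene. In the OV-BRCA1 samples it stood at 0.987, 1.21 and 0.607 FPKM. CD276-207, a retained-intron transcript, reached 5.96 FPKM in NC sample 1 and at most 0.426 FPKM in the other samples. The other 17 transcripts of CD276 summed to 22.02, 23.1 and 23.4 FPKM in the OV-BRCA1 samples and to 10.1, 9.76 and 11.0 FPKM in the NC samples. These 2 transcripts were set aside after their values were seen, so this is a description only.
With only protein-coding transcripts summed for every gene, a setting chosen after the values were seen, CD276 stood at 19.2 ± 0.870 against 8.06 ± 0.687 FPKM (SD, n = 3 each) and was called (log2 fold change 1.16, adjusted p = 3.66e-04 from limma). Among the single transcripts of CD276 only CD276-202, which encodes 534 residues, was called, at 1.82 ± 0.694 against 0.0836 ± 0.0907 FPKM (SD, n = 3 each, log2 fold change 1.35). CD276-202 passed the filter only through the OV-BRCA1 samples, so it had to differ. The main coding transcript differed between the OV-BRCA1 samples. It was CD276-217 in sample 1 (7.79 FPKM), CD276-213 in sample 2 (9.53 FPKM) and CD276-201 in sample 3 (10.5 FPKM).

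**Figure D2:**
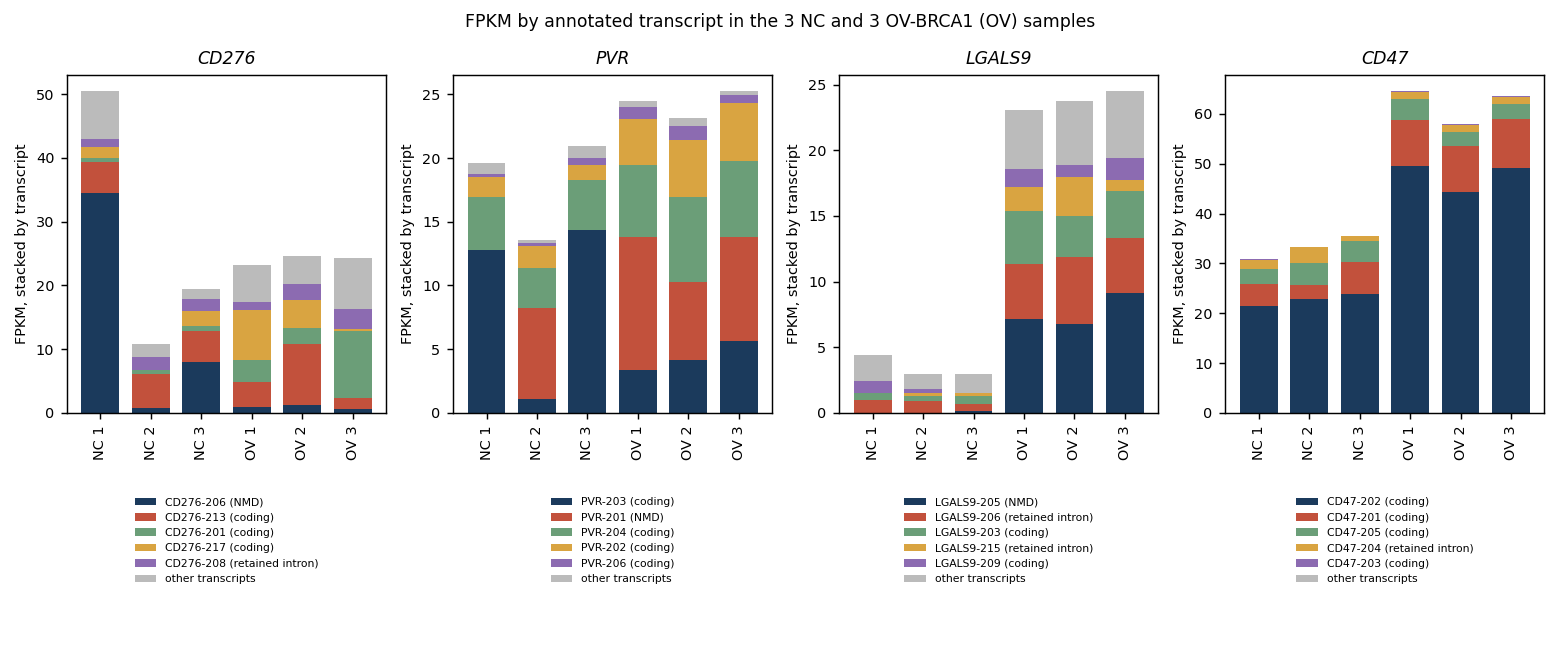
FPKM (vertical axes, linear, each with its own range) of CD276, PVR, LGALS9 and CD47 in the 3 NC and 3 OV-BRCA1 (OV) samples, stacked by transcript. The 5 transcripts with the highest mean are coloured, with NMD for nonsense-mediated decay, and CD276-206 makes up 68.2% of the bar of NC sample 1.

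PVR also changed its make-up within the NC group. PVR-203, a coding transcript, stood at 12.8, 1.10 and 14.4 FPKM in NC samples 1, 2 and 3, while PVR-201, annotated for nonsense-mediated decay, stood at 0, 7.14 and 0 FPKM. In the OV-BRCA1 samples both were present, PVR-203 at 3.35 to 5.65 FPKM and PVR-201 at 6.12 to 10.5 FPKM. PVR-202, which encodes 364 residues and was steadier than these, was the one PVR transcript called, at 4.21 ± 0.536 against 1.50 ± 0.300 FPKM (SD, n = 3 each, log2 fold change 1.06, adjusted p = 0.0246 from limma). Its call was lost with the replicate block and whichever of the 6 samples was left out (adjusted p = 0.0581 to 0.0909 from limma without 1 sample). PVR-204 stood at 6.06 ± 0.530 against 3.74 ± 0.561 FPKM (SD, n = 3 each) and was not called (adjusted p = 0.0834 from limma).

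LGALS9 gave much of its FPKM to transcripts that are not annotated as protein-coding. LGALS9-205, annotated for nonsense-mediated decay, was the highest in the OV-BRCA1 group at 7.18, 6.81 and 9.12 FPKM and was listed at 0, 0 and 0.135 FPKM in the NC samples. It was called, but passed the filter only through the OV-BRCA1 samples and had to differ. The retained-intron transcript LGALS9-206 was also called (log2 fold change 1.57), as was LGALS9-203, the leading coding transcript with 355 residues. LGALS9-203 stood at 4.09, 3.15 and 3.61 FPKM against 0.517, 0.406 and 0.555 FPKM (log2 fold change 1.62). Protein-coding transcripts made up 27.2% to 34.0% of LGALS9 in the OV-BRCA1 samples and 53.5%, 46.1% and 22.7% in NC samples 1, 2 and 3, and their summed level still differed (log2 fold change 1.80, adjusted p = 0.00513 from limma).

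For CD47 the same transcript led in all samples, with a higher share in the OV-BRCA1 group. CD47-202, which encodes 323 residues, held 76.3% to 77.2% of the gene in the OV-BRCA1 samples and 67.2% to 69.4% in the NC samples. It rose from 22.7 ± 1.23 to 47.6 ± 2.91 FPKM (SD, n = 3 each, log2 fold change 1.03, adjusted p = 0.00355 from limma). CD47-201, with 305 residues, had 9.50 ± 0.445 against 4.59 ± 1.85 FPKM and did not pass (adjusted p = 0.101 from limma).

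For CD274 the transcript with the complete reading frame of 290 residues, CD274-202, stood at 1.23, 1.35 and 1.83 FPKM in the OV-BRCA1 samples and at 0.121, 0.157 and 0.195 FPKM in the NC samples. It was called (log2 fold change 1.09, adjusted p = 0.0124 from limma), as was CD274-203, annotated without a reading frame (log2 fold change 0.87). IDO1-202, with 403 residues, was the one IDO1 transcript tested and was called at 3.14 ± 0.485 against 0.251 ± 0.181 FPKM (SD, n = 3 each, log2 fold change 1.73). PDCD1LG2 has a single transcript in the files, so its values carry no such split. CD274-202, CD274-203, IDO1-202 and the PDCD1LG2 transcript passed the filter only through the OV-BRCA1 samples, so they had to differ.

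**Figure D3:**
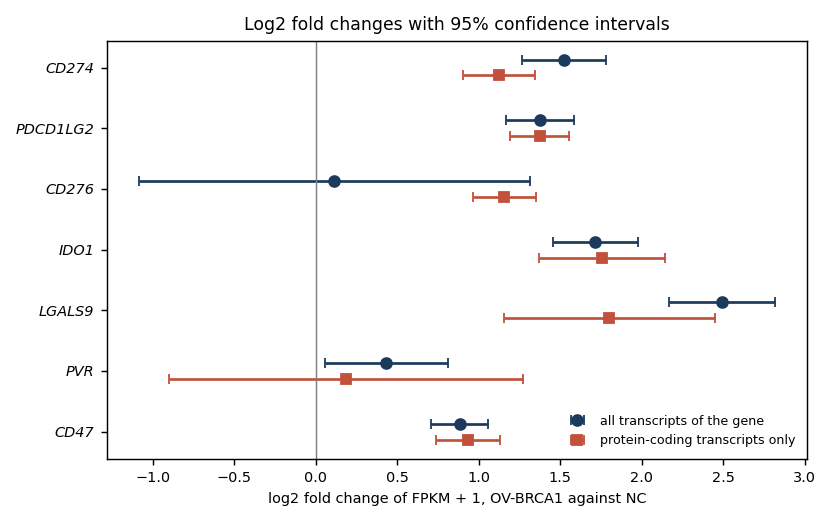
Log2 fold changes of FPKM + 1 (horizontal axis) with 95% confidence intervals from limma for the 7 tested genes, over all transcripts (circles) and over protein-coding transcripts only (squares). The interval of CD276 runs from -1.08 to 1.31 with all transcripts and lies above 0 with protein-coding transcripts, and that of PVR widens.

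To set the 8 genes beside their pathways, 9 lists with 139 different genes were compared in the same test, of which 87 were tested. Of these 28 were called higher, against 16.4% of all tested genes, and 18 were called lower, against 18.9%. The same shares stand beside the counts of each list below, and the lists were chosen with earlier results of these data known. The median log2 fold change was 0.12 over the listed genes and -0.04 over all genes tested. Many of these calls depend on how the transcripts are summed. With each gene given by its most abundant transcript, 27 of the called genes lost their call and 2 (LGALS9C and CYP1A1) were not tested. As 1 gene (ULBP3, log2 fold change 0.875) gained a call, 12 genes were then called higher and 6 lower. Over all genes the calls fell likewise, from 5764 of 16321 to 1585 of 15614. Those lost include BTN2A1, BTN3A2, BTN3A3, NECTIN2, LGALS9B, WARS, KYAT1, CD24, QPCTL, SIRPA, LRP1 and all 7 called genes that control PD-L1. A lost call did not mean a smaller difference, as the log2 fold change was 3.01 for WARS, -3.02 for KYAT1, -2.22 for CD24 and 1.57 for SIRPA. For TIPARP (-0.40) and MICB (-0.15) the direction turned. With protein-coding transcripts only, BTN2A1, LGALS3BP, CMTM4 and BAG6 lost their calls, and LAG3 and LGALS9C were not tested.

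Among 10 tested genes of the B7 and butyrophilin families, whose products contact T cells, 4 were called higher and 1 lower (median log2 fold change 0.18). The butyrophilin genes BTN2A1 (12.9 ± 0.926 against 7.78 ± 0.319 FPKM, SD, n = 3 each), BTN3A2 (log2 fold change 0.76) and BTN3A3 (1.31) rose, and BTN3A2 and BTN3A3 are close copies that can share reads. With protein-coding transcripts only BTN2A1 had a log2 fold change of 0.19. NCR3LG1, which encodes the NKp30 ligand B7-H6, also rose, from 2.35 ± 0.420 to 4.32 ± 0.0157 FPKM. ICOSLG, the ligand of ICOS, fell by 0.39 on the log2 scale, a call that was lost with no filter on low values, with the replicate number as a block, and without OV-BRCA1 sample 2 or 3 or NC sample 1 or 3. CD80 and CD86, the ligands of CD28 and CTLA4, were listed at 0 in all samples, as were HHLA2, BTNL2, BTNL3 and BTNL8.
Of the nectin family, to which PVR belongs, 3 of 8 genes were tested. NECTIN2, which like PVR binds TIGIT and CD226, rose from 37.8 ± 1.51 to 55.9 ± 2.99 FPKM (SD, n = 3 each, log2 fold change 0.55). NECTIN1 and CADM4 had log2 fold changes of -0.02 and -0.34 and were not called, though CADM4 was called without the trend and with scaling to nuclear protein-coding genes (adjusted p = 0.0439 and 0.0385 from limma).

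Of 7 tested genes in the galectin list, 3 were called higher and 2 lower (median log2 fold change 0.23). LGALS3BP, which encodes a galectin-binding glycoprotein and not a galectin, rose from 11.9 ± 1.16 to 127 ± 7.36 FPKM (SD, n = 3 each, log2 fold change 3.31). With protein-coding transcripts only its log2 fold change was 0.41. The abundant galectin genes LGALS1 and LGALS3 fell by 0.56 and 0.72 on the log2 scale, the former from 428 ± 1.09 to 290 ± 11.8 FPKM. The remaining calls were those of LGALS9B and LGALS9C, and LGALS8 (22.3 against 19.0 FPKM on average) was not called. LGALS12, LGALS13, LGALS14, LGALS16 and CLC were listed at 0 in all samples.

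Of 15 tested genes of the kynurenine pathway and the aryl hydrocarbon receptor, the sensor that kynurenine activates, 4 were called higher and 4 lower (median log2 fold change 0.18). The other enzymes that take up tryptophan at the start of the pathway, IDO2 and TDO2, were listed at 0 in all samples. WARS, the tryptophanyl-tRNA synthetase gene, rose from 77.8, 80.8 and 92.1 FPKM in the NC samples to 561, 446 and 345 FPKM in the OV-BRCA1 samples. The receptor gene AHR rose from 8.34 ± 0.156 to 19.2 ± 1.23 FPKM (SD, n = 3 each), while its partner gene ARNT fell from 12.4 ± 0.838 to 5.49 ± 0.259 FPKM. Of its target genes CYP1A1 rose by 1.12 and TIPARP by 0.28 on the log2 scale, and CYP1B1 fell by 0.26. The TIPARP call was lost without OV-BRCA1 sample 2 or 3 or NC sample 1 or 2 (adjusted p up to 0.0858 from limma), with no filter, with the replicate block and with scaling to nuclear protein-coding genes. The kynurenine aminotransferase gene KYAT1 fell from 21.5 ± 2.23 to 6.96 ± 0.987 FPKM. KYNU, which encodes kynureninase, had 41.0 ± 14.2 against 32.6 ± 7.17 FPKM and was not called, nor was KYAT3 (24.4 against 19.6 FPKM on average), which was called with the replicate block (adjusted p = 0.0309 from limma) and without OV-BRCA1 sample 2 (0.0425). Of the tryptophan transporter genes SLC7A5 fell by 0.15, from a mean of 567 FPKM, a call that was lost with no filter, the replicate block or no trend, for its most abundant transcript, and without OV-BRCA1 sample 2 or 3 or NC sample 1 or 3 (adjusted p up to 0.0922 from limma), and SLC3A2 had a log2 fold change of -0.05 that was not called.

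Of 21 tested genes known to control PD-L1, 3 were called higher and 4 lower (median log2 fold change 0.07). IRF1, the interferon regulatory factor that acts at the CD274 promoter, stood at 17.4, 17.7 and 27.1 FPKM in the OV-BRCA1 samples and at 8.08, 11.5 and 9.50 FPKM in the NC samples (log2 fold change 1.00, adjusted p = 0.0103 from limma). IRF2 rose by 0.47 and the interferon gamma receptor gene IFNGR1 by 0.21, whereas IFNGR2 had a log2 fold change of 0.12 and was not called. The IFNGR1 call was lost whichever sample was left out, except OV-BRCA1 sample 2, with the replicate block or no trend, and for its most abundant transcript (adjusted p up to 0.141 from limma). The kinase gene JAK1 fell by 0.28 on the log2 scale. CMTM6, whose product protects the PD-L1 protein from degradation, had 24.9 ± 0.355 against 23.8 ± 0.734 FPKM (SD, n = 3 each) and was not called, and its relative CMTM4 fell by 0.58, which did not pass with protein-coding transcripts only (-0.27). USP22 and CDK5 fell by 0.45 and 0.39, and STUB1, COPS5, ZDHHC3 and OTUB1 were not called. OTUB1 was called with protein-coding transcripts only (0.33), and STUB1 without OV-BRCA1 sample 2 (-0.35). BTRC and GSK3B, not called either, were called with protein-coding transcripts only, at -0.36 and 0.27. BTRC was also called without OV-BRCA1 sample 1 (-0.465).

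Of 8 tested genes of the CD47 axis and other phagocytosis signals, 3 were called higher and 2 lower (median log2 fold change 0.17). QPCTL, whose enzyme modifies CD47 so that SIRPA can bind it, rose from 12.3 ± 0.394 to 16.9 ± 1.25 FPKM (SD, n = 3 each). SIRPA, the CD47 receptor gene, itself rose in these epithelial cells, from 5.44 ± 0.354 to 8.40 ± 1.03 FPKM. CALR, an endoplasmic reticulum chaperone gene whose product signals engulfment at the cell surface, rose from 296 ± 3.97 to 524 ± 5.82 FPKM. CD24, another signal against engulfment, fell by 0.73 and LRP1, a receptor for calreticulin, by 0.57 on the log2 scale. THBS1, a further CD47 ligand gene, had a log2 fold change of -0.07 and was not called, whereas its protein-coding transcripts alone were called at 0.19. B2M, the light chain gene of HLA class I, was not called at 0.60 but was called with protein-coding transcripts only, at 1.67. LILRB1 was listed at 0 in all samples.

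Of 14 ligand genes of NK cell receptors, 8 were called higher and 1 lower (median log2 fold change 0.59). HLA-E, the ligand of NKG2A, rose from 37.5 ± 1.77 to 104 ± 5.04 FPKM (SD, n = 3 each), though HLA genes can share reads. The NKG2D ligand genes MICA, MICB, ULBP2, RAET1E and RAET1L rose by 0.62, 0.59, 0.85, 0.59 and 1.47 on the log2 scale, CLEC2B rose by 0.53, and ULBP1, ULBP3 and RAET1G were not called. The CLEC2B call was lost with no filter, without OV-BRCA1 sample 3 or NC sample 1 or 2, and for its most abundant transcript. ULBP3 was called without OV-BRCA1 sample 2 (adjusted p = 0.0333 from limma) and for its most abundant transcript (0.0456). BAG6 fell by 0.83, which did not pass with protein-coding transcripts only (-0.73).
Of 9 tested genes for other ligands of T cells, 3 were called higher and 3 lower (median log2 fold change -0.00). The adhesion genes ICAM1 (log2 fold change 1.49), CEACAM1 (1.34) and CD58 (0.33) rose, of which CEACAM1 was below 0.5 FPKM in every NC sample and passed the filter only through the OV-BRCA1 samples, so it had to differ. The costimulatory ligand genes CD70, TNFSF9 and TNFSF14 fell by 0.52, 0.32 and 0.89, and CD70 was the most abundant of them at 466 ± 3.50 FPKM in the NC group (SD, n = 3). HMGB1 (111 against 102 FPKM on average) was not called, and CD48 was listed at 0 in all samples.
Of 17 genes for receptors of these ligands 7 (PDCD1, CTLA4, HAVCR2, TIGIT, CD96, KIR3DL3 and CRTAM) were listed at 0 in all samples, and SIRPA and LAG3 were the 2 tested. LAG3 fell from 2.30 ± 0.361 to 0.497 ± 0.171 FPKM (SD, n = 3 each, log2 fold change -1.14).

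**Figure D4:**
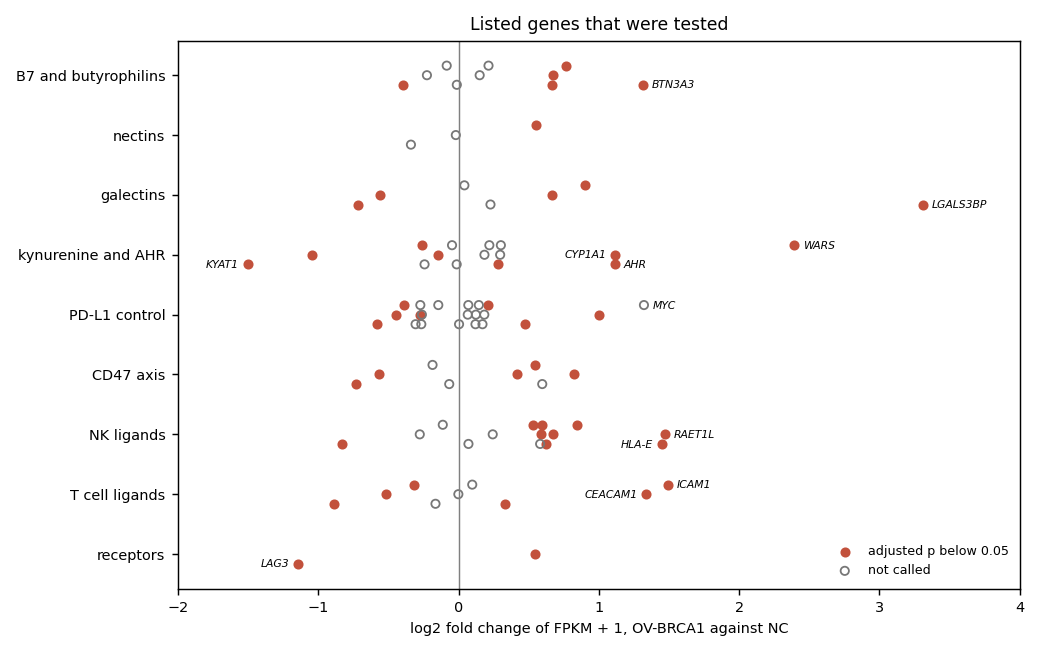
Log2 fold changes of FPKM + 1 (horizontal axis) of the tested genes of 9 lists (vertical axis, with a small vertical offset for legibility). Filled points were called and open points were not. LGALS3BP (3.31) and WARS (2.39) lie farthest to the right, and KYAT1 (-1.50) farthest to the left.

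The genes whose values followed the members most closely over the 6 samples were found from the root mean square difference of log2(FPKM + 1) after subtraction of each gene's mean. For CD274 these were CYP2J2 and DNAJB9, with differences of 0.07 and 0.08. For PDCD1LG2 they were BLZF1 and STC1, for IDO1 CYTOR and GLIPR1, for LGALS9 LINC01554 and RGMA, and for CD47 RN7SKP203 and ENTPD7. With samples in only 2 groups, this measure mainly finds genes with the same log2 fold change.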

How the data were processed

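mRNA libraries of 3 OV-BRCA1 and 3 NC samples were compared. The authors removed adapter and low-quality reads and deposited FPKM per transcript. The submitters' processing notes name FastQC, HISAT2 and hg38, and the quantification tool, annotation and use of strand are not given in the sources used here. Genes were named by GENCODE release 29 (198868 of 199167 transcripts matched, 98.7% of them at the same position), and FPKM was summed over the transcripts of each gene. limma 3.58.1 (R 4.3.3) with a mean-variance trend was run on log2(FPKM + 1), pseudocount 1, for genes that reached 0.5 FPKM in 3 or more samples. The study tested counts with DESeq, which could not be run on FPKM. P-values were Benjamini-Hochberg adjusted over all genes tested. The test was checked on simulated data.

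The depth is an estimate, since only 31.6% to 35.9% of low values lay closer than 0.1 to a whole fragment number, and the number of fragments covers counting error only. The methods call the samples biological replicates without naming separate cultures. The 8 genes and the lists were chosen with earlier results of these data known. From each list, called genes with the smallest adjusted p-values (up to 4), genes with a mean of at least 20 FPKM and genes at 0 were to be named, and other listed genes and the CD274 neighbours were named after their values were seen. The promoter motifs, summing only protein-coding transcripts and a filter of 2 samples when an OV-BRCA1 sample was left out were also chosen after the data were seen. Python 3.11.15 with pandas 2.3.3 was used for the tables.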

Additional observations from a re-analysis of the deposited data

How the results depend on the processing

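The calls of CD274, PDCD1LG2, IDO1, LGALS9 and CD47 were kept at an adjusted p below 0.05 under every alternative in which the gene was tested, with a pseudocount of 0.1, other filters and scalings, no trend, single transcripts and each sample left out. The CD274 log2 fold change ranged from 1.09 to 2.88 and that of LGALS9 from 1.80 to 3.05. Between 3 and 5 of the 8 genes were called when 1 sample was left out. Only 3 were called without an OV-BRCA1 sample, because CD274 and PDCD1LG2 then had 2 samples above the filter. With a filter of 2 samples all 5 were called again. CD274 and PDCD1LG2 passed every filter only through OV-BRCA1 samples, so in each filtered fit they had to differ. For these genes only the fit with no filter (adjusted p = 0.00133 and 8.95e-04 from limma) is free of this limit. With a log2 fold change above 1 also required, 4 were called, since CD47 was below it. CD276 ranged from -0.37 (without NC replicate 2) to 0.69 with 1 sample left out, turned to -2.10 for its most abundant transcript and reached 1.16 with protein-coding transcripts only. PVR turned to -0.53 for its most abundant transcript, and the cause was not tested. With the replicate number as a block, the 5 gene calls were kept and 1 of the 10 member transcripts was called. Whether same-numbered samples were prepared together is not stated in the sources used here. Their deviations correlated at -0.024 to 0.025, against -0.046 to 0.032 for samples with different numbers, which cannot show how they were prepared. Without 1 sample, 3 to 7 transcripts were called. Of the listed genes, 12 rose and 6 fell with the most abundant transcript, and 10 rose and 3 fell with a log2 fold change above 1. Among named listed genes, none of the following had been called, and with the most abundant transcript B2M turned to -1.43, HMGB1 to -0.64, KYNU to -0.13, OTUB1 to -0.16 and THBS1 to 0.18. THBS1 was at 0.19 with protein-coding transcripts only. With 1 sample left out, COPS5 ranged from -0.11 (without NC replicate 2) to 0.21, HMGB1 from -0.074 to 0.20 and SLC3A2 from -0.18 to 0.067. Without OV-BRCA1 replicate 2, with either filter, COPS5 was at -0.069, HMGB1 at -0.074 and SLC3A2 at 0.067, and SLC3A2 was at 0.06 without NC replicate 2. No scaling moved the median of all genes by more than 0.1.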

Other observations

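Some listed genes that were not called varied between the samples of one group much as CD276 did. B2M, the light chain gene of HLA class I, measured 124, 517 and 303 FPKM in NC samples 1, 2 and 3, against 392, 377 and 455 FPKM in the OV-BRCA1 group. With protein-coding transcripts only, B2M was called higher (log2 fold change 1.67, SE 0.142 against 0.482 over all transcripts). MYC stood at 10.5, 1.09 and 1.00 FPKM in the NC group and at 16.7, 2.42 and 11.4 FPKM in the OV-BRCA1 group. B2M was lowest in NC sample 1, the sample in which CD276 was highest, which is an observation on 1 sample.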
